A study of Homo sapiens with 12 samples.

Results

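Proteasome subunit genes were examined in MDA-MB-231 cells, a human triple-negative breast cancer line with a mesenchymal character, after knockdown of NELFA, of YAP or of both. The members were the protein-coding genes of the deposited count table whose symbol is PSMA, PSMB, PSMC, PSMD, PSME, PSMF or PSMG followed by digits alone, which gave 48 of the 58051 genes listed. Total RNA without ribosomal RNA was sequenced in 4 groups of 3 libraries. The siControl group received a non-targeting siRNA pool, siNELFA a pool against NELFA, siYAP a pool against YAP1, and siNELFA+siYAP both pools. All cells were transfected at 50 to 100 nM siRNA, and the labels name 48 h and 72 h after transfection as times of RNA extraction without saying which library was taken when, while the methods give 72 h for sequencing. The siNELFA+siYAP libraries are numbered as replicates in their titles, but their library names put all 3 under N1, while those of the other groups are N1, N2 and N3, so they may be repeats of 1 culture. NELFA is a subunit of the negative elongation factor that holds RNA polymerase II in its promoter-proximal pause, and YAP is the co-activator through which the Hippo pathway acts on TEAD target genes.

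The proteasome is the protease that degrades ubiquitin-tagged proteins. Its 20S core is a barrel of outer alpha rings (PSMA genes) and inner beta rings (PSMB genes), and of the constitutive beta subunits only PSMB5, PSMB6 and PSMB7 carry proteolytic sites. Interferon-induced PSMB8, PSMB9 and PSMB10 can replace these catalytic subunits to form the immunoproteasome, which favours peptides for presentation by MHC class I. The 19S cap recognises and unfolds substrates. Its base holds the ATPases (PSMC genes) with the large scaffold subunits, and its lid holds PSMD14, the deubiquitinase. PSME genes encode alternative activators of the core, PSMF1 encodes an inhibitor, and the PSMG genes with PSMD5, PSMD9 and PSMD10 encode assembly chaperones. Rapidly growing tumour cells depend on proteasome activity, and proteasome inhibitors act on the PSMB5 site.

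By these roles the 48 genes fell into 14 subunits of the constitutive core, 5 of the immunoproteasome and tissue-specific cores, 9 of the 19S base, 8 of the 19S lid, 5 activators and inhibitor, and 7 assembly chaperones. PSMA8, the alpha subunit of testis, and PSMB11, the catalytic subunit of the thymus, had 0 counts in all 12 libraries and were not tested. The other 46 passed the filter on low counts in every comparison.

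The libraries held 9608145 to 18803104 counts assigned to genes. NELFA stood at 32.4% of its siControl mean in siNELFA and at 26.4% in siNELFA+siYAP, and YAP1 at 15.8% in siYAP and 15.3% in siNELFA+siYAP. The mesenchymal markers VIM, EGFR, CD44 and AXL were high in all libraries, and the luminal markers ESR1 and PGR had at most 6 counts, but KRT19 had 827 to 1781, ERBB2 422 to 1474 and GATA3 58 to 127. Of the blood cell markers, PTPRC, CD3E and LYZ had at most 6 counts and CD68 had 822 to 3554. In all groups but siNELFA+siYAP the library numbered replicate 1 stood apart. Deviations from the group mean correlated at 0.639 to 0.885 between same-numbered libraries of siControl, siNELFA and siYAP over 12971 genes, but at −0.0525 to 0.0263 between any of these and siNELFA+siYAP. Over the 46 members the correlations were 0.596 to 0.933 and 0.128 to 0.309. The siNELFA+siYAP libraries differed from each other by more than counting noise (chi-square per degree of freedom 2.84 to 16.5). Between replicates 2 and 3 that chi-square was 20.7 in siControl, 16.9 in siNELFA and 12.9 in siYAP. The median coefficient of variation of the members was 3.66% in siNELFA+siYAP against 18.8% to 22.7% in the other groups, whose values include replicate 1.

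The shift of replicate 1 reached the proteasome genes. In siControl, the 46 members were lower in replicate 1 than in replicates 2 and 3 by a median of −0.54 on the log2 scale, against −0.06 over the 12971 genes. The medians for the members were −0.42 in siNELFA and −0.58 in siYAP, but 0.02 in siNELFA+siYAP. In 38 of the 46, replicate 1 was below the mean of replicates 2 and 3 in each of siControl, siNELFA and siYAP, and in 35 it was below both. PSMD2, a scaffold subunit of the base, and PSMB7 were the lowest, at means over these groups of −1.30 and −1.28. PSME1, a subunit of the interferon-induced PA28 activator, went the other way at 0.86, as did the assembly chaperone PSMD10 at 0.51. All 8 lid genes and 8 of 9 base genes were low in replicate 1 of each of the 3 groups, and PSMC6 was the base gene that was not.

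As a share of all counts, the members took 0.324%, 0.508% and 0.557% in the siControl libraries. The siNELFA libraries gave 0.364%, 0.542% and 0.592%, and the siYAP libraries 0.318%, 0.498% and 0.543%. In siNELFA+siYAP the shares were 0.560%, 0.544% and 0.556%. Replicate 1 was the lowest of its group in the first 3 groups, and the 3 siNELFA+siYAP libraries lay within the range of the higher libraries of the other groups. The mean was 0.463% ± 0.123 for siControl and 0.499% ± 0.120 for siNELFA. It was 0.453% ± 0.119 for siYAP and 0.553% ± 0.00841 for siNELFA+siYAP (SD, n = 3, where the siNELFA+siYAP libraries may be repeats of 1 culture). The group means differed by less than the spread within siControl, but within each numbered pair the share was higher in siNELFA than in siControl and lower in siYAP.

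**Figure D1:**
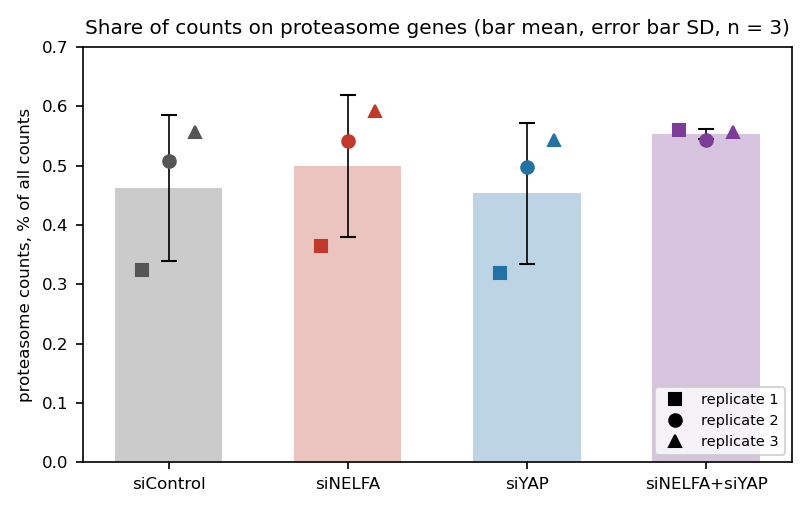
Share of all counts that fell on the 48 proteasome genes, in percent, for each of the 12 libraries (squares, circles and triangles for replicates 1, 2 and 3), with the group mean as a bar and the SD as an error bar. Replicate 1 lies at 0.318% to 0.364% in siControl, siNELFA and siYAP and at 0.560% in siNELFA+siYAP.

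Levels were compared between genes in TPM, which is scaled by transcript length. In siControl the median over the 48 genes was 78.4 TPM, and the median of all 16856 protein-coding genes with a TPM above 0 was 9.81. The core had a median of 124 TPM, from 59.1 for PSMB2 to 246 for the alpha subunit PSMA7. The base had a median of 102 TPM and held the highest member of all, PSMD2 at 356 ± 169 TPM (SD, n = 3), with its fellow scaffold PSMD1 the lowest of the base at 57.0. The lid was narrow on this scale, from 70.0 TPM for PSMD3 to 121 for PSMD8 with a median of 76.5. Among activators, PSME3 (PA28 gamma, the nuclear form) was highest at 108 TPM and PSME4 (PA200) lowest at 36.1. The assembly chaperones were lower, with a median of 36.6 TPM between PSMD10 at 20.3 and PSMG2 at 72.7. Some of these orders depended on the scaling by length. By siControl counts per kilobase of annotated exon, PSMD2 stayed the highest of all (1558) and PSMD1 the lowest of the base (120). On that scale the lowest were PSMA2 in the core (141) and PSMD6 in the lid (135). PSMF1 was lowest among activators and inhibitor (115), and PSMG4 among chaperones (48.5).

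The inducible catalytic subunits were present without added interferon. PSMB8 stood at 48.6 ± 7.09 TPM, PSMB9 at 32.2 ± 8.53 and PSMB10 at 10.7 ± 4.50 in siControl (SD, n = 3). The constitutive catalytic subunits were at 86.5 ± 10.9 TPM for PSMB5, 102 ± 37.3 for PSMB6 and 189 ± 85.1 for PSMB7. The order within a subcomplex was often within the spread of the libraries, as for PSMB7, PSMB4 and PSMB3 at 189, 190 and 179 TPM. In TPM, PSMB10 was below the other inducible subunits by more than the SDs. By counts per kilobase of annotated exon, PSMB10 at 80.3 was close to PSMB9 at 89.7, with PSMB8 at 173.

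**Figure D2:**
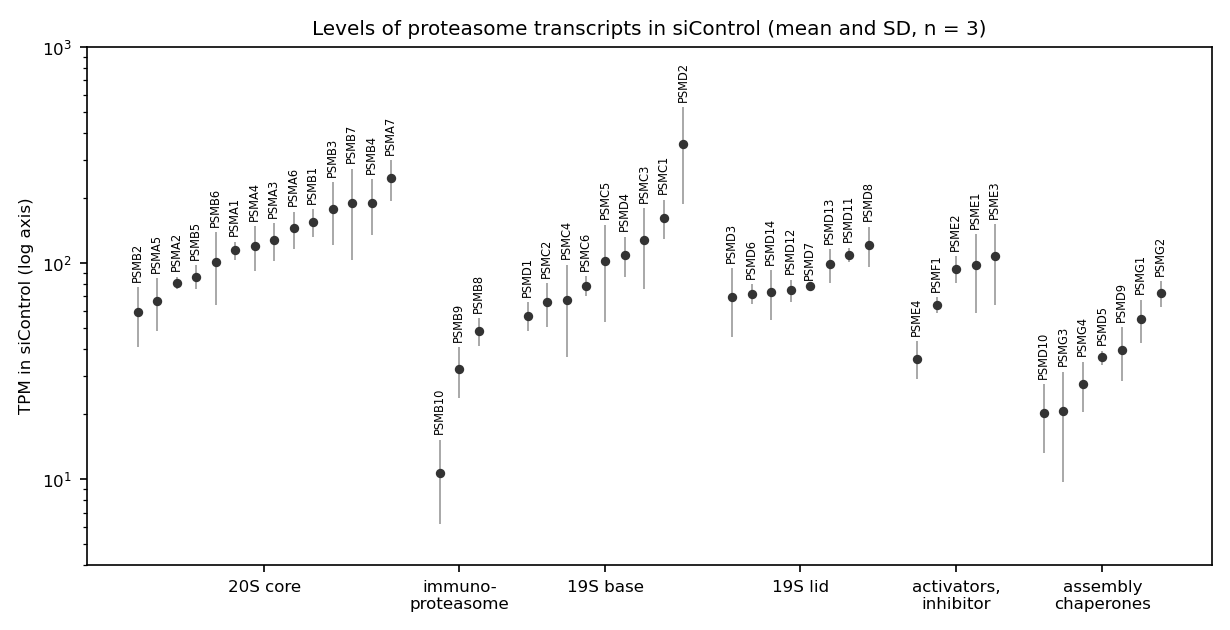
Mean level of each detected proteasome gene in siControl, in TPM on a log axis, ordered within subcomplexes (points are means and lines are SDs over 3 libraries). Core and cap subunits lie between 57.0 and 356 TPM, while the inducible PSMB10 is at 10.7 and the assembly chaperones at 20.3 to 72.7.

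In siNELFA against siControl, the comparison that asks what loss of NELFA alone does, no member passed the test without regard to replicate numbers, and most of the family lay slightly above the other genes. On TMM-normalised counts, 42 of the 46 genes had a log2 fold change above 0 and 4 below, with a median of 0.18 against 0.00 over the 17727 genes tested, of which 50.0% were above 0. The TPM scale shifted all genes, whose median on log2(TPM + 1) was −0.17. There the members had a median of −0.01, with 22 above 0 and 37 above the median of all genes. PSMB8, PSMB9 and PSMB10 were above 0 on both scales. The median also moved with replicate 1, to 0.04 without that library of siControl and 0.30 without that of siNELFA. It moved less when both libraries of a replicate number were left out and the fit had a block for that number. The medians were then 0.17, 0.24 and 0.18 without replicates 1, 2 and 3. By edgeR's quasi-likelihood test 0 members had an adjusted p under 0.05, as against 0.00564% of all genes, and DESeq2 (0.053% of all genes) and limma on log2 TPM likewise called 0. At an unadjusted p under 0.05, edgeR gave PSMB10 and PSMB9, 2 of 46, beside 4.46% of all genes. All adjusted p-values of members were 0.9996. NELFA itself, at a log2 fold change of −1.63, was not called by edgeR's quasi-likelihood test (adjusted p = 0.381). The lack of calls therefore does not show that members were unchanged.

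Of the catalytic subunits, the inducible PSMB10 and PSMB9 had the largest fold changes. PSMB10, which replaces PSMB7, had normalised counts of 77.8, 142 and 172 in siControl and of 228, 315 and 268 in siNELFA. Every siNELFA library lay above every siControl library, and the log2 fold change was 1.04 ± 0.32 (± standard error throughout for fold changes), or 2.06-fold. PSMB9, which replaces PSMB6, had 295, 360.2 and 243 in siControl and 425, 538 and 458 in siNELFA, again without overlap, at 0.66 ± 0.22 or 1.58-fold. PSMB8, which replaces PSMB5, had 545, 662 and 602 in siControl and 747, 791 and 703 in siNELFA, at 0.31 ± 0.16. On the log2(TPM + 1) scale the differences were 0.91 for PSMB10, 0.53 for PSMB9 and 0.12 for PSMB8. The summed TPM of 4 blood cell markers, nearly all of it CD68, was also higher in siNELFA (91.6 to 119) than in siControl (74.9 to 81.1). It was likewise higher than in siControl in siYAP (91.4 to 117) and in siNELFA+siYAP (126 to 155). The part of CD68 in these results was not tested.

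The constitutive counterparts had fold changes near that of PSMB8 and below those of PSMB9 and PSMB10, the difference was not tested, and their groups overlapped. PSMB5, the target of bortezomib, had normalised counts of 881, 1116 and 1142 in siControl and of 1368, 1142 and 1364 in siNELFA, at 0.31 ± 0.18 on the log2 scale. PSMB6 had 472, 1036 and 1086 in siControl and 930.0, 1032 and 1221 in siNELFA, at 0.30 ± 0.31. PSMB7 ranged more widely, with 1025, 2316 and 2862 in siControl and 1366, 2736 and 3417 in siNELFA, at 0.28 ± 0.44. The wide errors of PSMB6 and PSMB7 moved with replicate 1, which was the lowest library of siControl for both. In the fit with a block for the replicate number, given below, the errors were 0.16 for PSMB6 and 0.10 for PSMB7.

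**Figure D3:**
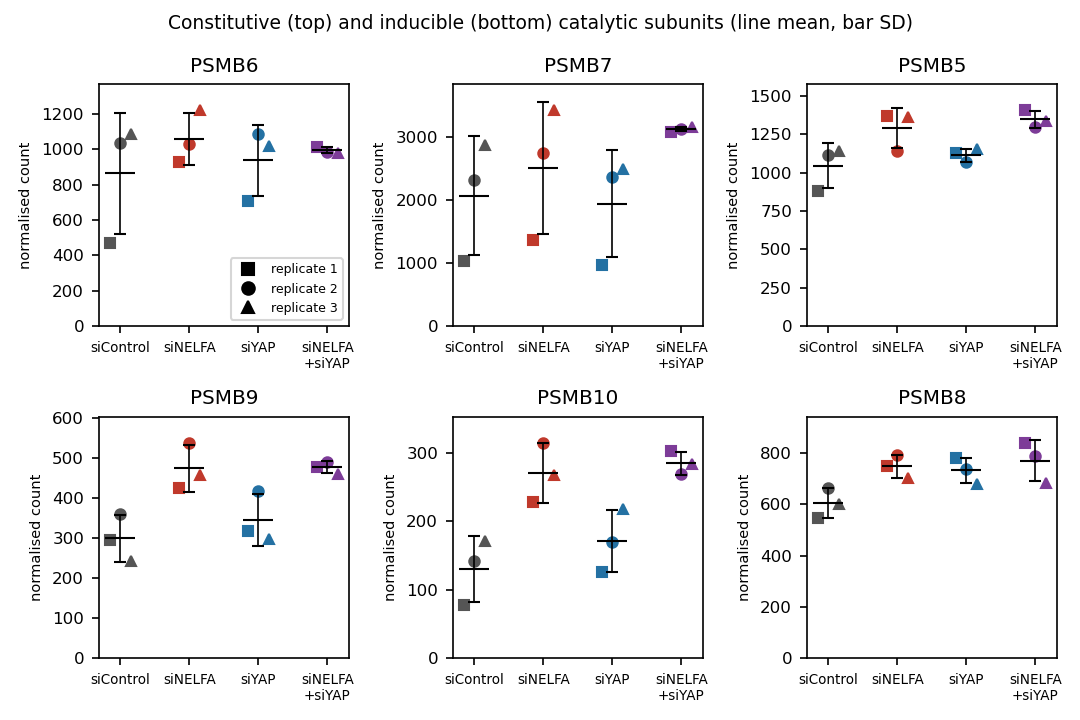
Normalised counts of the constitutive catalytic subunits PSMB6, PSMB7 and PSMB5 (top) and of the inducible PSMB9, PSMB10 and PSMB8 that replace them (bottom) in each library, with the group mean (horizontal line) and SD (bar), n = 3. The 3 siNELFA libraries of PSMB10 lie at 228 to 315 and the 3 siControl libraries at 77.8 to 172, while the groups of PSMB7 overlap.

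Over the whole core, 14 of 14 genes had a fold change above 0 on the count scale, and on the TPM scale 14 lay above the median of all genes and 10 above 0, from 0.15 for PSMA7 to 0.38 for PSMB4 on counts, with a median of 0.27. The lid had 7 of 8 above 0 on counts, and 6 above the median of all genes on TPM, led by PSMD3 at 0.53, with a median of 0.15 on counts. The base had 8 of 9 above 0 on counts, and 5 above that median on TPM, with a median of 0.07 on counts, and PSMD2 lay at −0.15 ± 0.47. The activators and inhibitor were above 0 in 5 of 5 on counts, and 5 were above that median on TPM. PSME2, the beta subunit of PA28, had normalised counts of 762, 839 and 742 in siControl and of 1000.5, 931 and 974 in siNELFA, at 0.31 ± 0.15 and without overlap. Its partner PSME1 was at 0.13 ± 0.35, PSME3 at 0.27 ± 0.41, PSME4 at 0.09 ± 0.24 and the inhibitor PSMF1 at 0.17 ± 0.18. On the TPM scale PSME1, PSME4 and PSMF1 were below 0 but above the median of all genes. In all, 7 members had non-overlapping groups with siNELFA above (PSMA1, PSMA2, PSMB1, PSMB8, PSMB9, PSMB10 and PSME2) and 0 below, where 6.24% of all genes were above and 5.94% below.

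Assembly chaperones held the lowest values. PSMD5, which guards a base intermediate, had normalised counts of 1078, 1448 and 1477 in siControl and of 810.2, 1243 and 1140.4 in siNELFA. This gave the lowest fold change of the family, −0.32 ± 0.22, with overlapping groups. PSMD9, another base chaperone was at −0.25, while the median of the 7 chaperones was 0.12.

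Since same-numbered libraries of siControl, siNELFA and siYAP deviated together, the fit was repeated with a block for the replicate number. This changed the call for 4 members. With the block, PSMB10 rose by 1.08 ± 0.20 (edgeR's quasi-likelihood test, adjusted p = 0.00972), PSMB9 by 0.68 ± 0.15 (adjusted p = 0.0200), PSMD3 by 0.58 ± 0.13 (adjusted p = 0.0200) and the core subunit PSMB4 by 0.41 ± 0.11 (adjusted p = 0.0491). These were 4 of 46 members, 0 lower, beside 2.76% of all genes called higher and 5.21% in either direction. At an unadjusted p under 0.05, 19 members were higher and 1 lower, where 10.5% of all genes were higher. Among the 19 were the constitutive catalytic PSMB5 at 0.30 ± 0.13, PSMB6 at 0.36 ± 0.16 and PSMB7 at 0.30 ± 0.10. The inducible PSMB8 was also among them, at 0.31 ± 0.12. None of these was called (edgeR's quasi-likelihood test, smallest adjusted p = 0.0945). Within the numbered pairs of libraries, 31 of the 46 members were higher in siNELFA than in siControl in all 3 pairs, a pattern shown by 22.1% of all genes, and 2 were lower in all 3.

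The pairs did not contribute alike. The log2 ratios of PSMB10 in pairs 1, 2 and 3 were 1.55, 1.15 and 0.64, and those of PSMB9 were 0.53, 0.58 and 0.92. PSMD3 gave 1.02, 0.30 and 0.45, and PSMB4 gave 0.70, 0.24 and 0.31. The first pair was the largest for all but PSMB9. PSMD3, whose normalised counts were 991, 2052 and 2131 in siControl and 2004, 2532 and 2914 in siNELFA, and PSMB4, at 1260.1, 2085 and 2285 against 2047, 2454 and 2834, each had a low replicate 1 in siControl. When the pair of replicate 1 was left out of the blocked fit, all 4 genes were still called, among 16 members higher and 2 lower (PSMD5 and PSMD9) of 46, beside 15.7% of all genes called in either direction and 7.99% higher. Without the pair of replicate 2 or of replicate 3 only PSMD3 and PSMB10 were called, beside 3.56% and 3.65% of all genes, and PSMB9 had an adjusted p of 0.0774 and 0.168. Each of these fits of 4 libraries had 1 residual degree of freedom and leaned on the spread shared between genes. These fits were chosen after seeing the data.

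**Figure D4:**
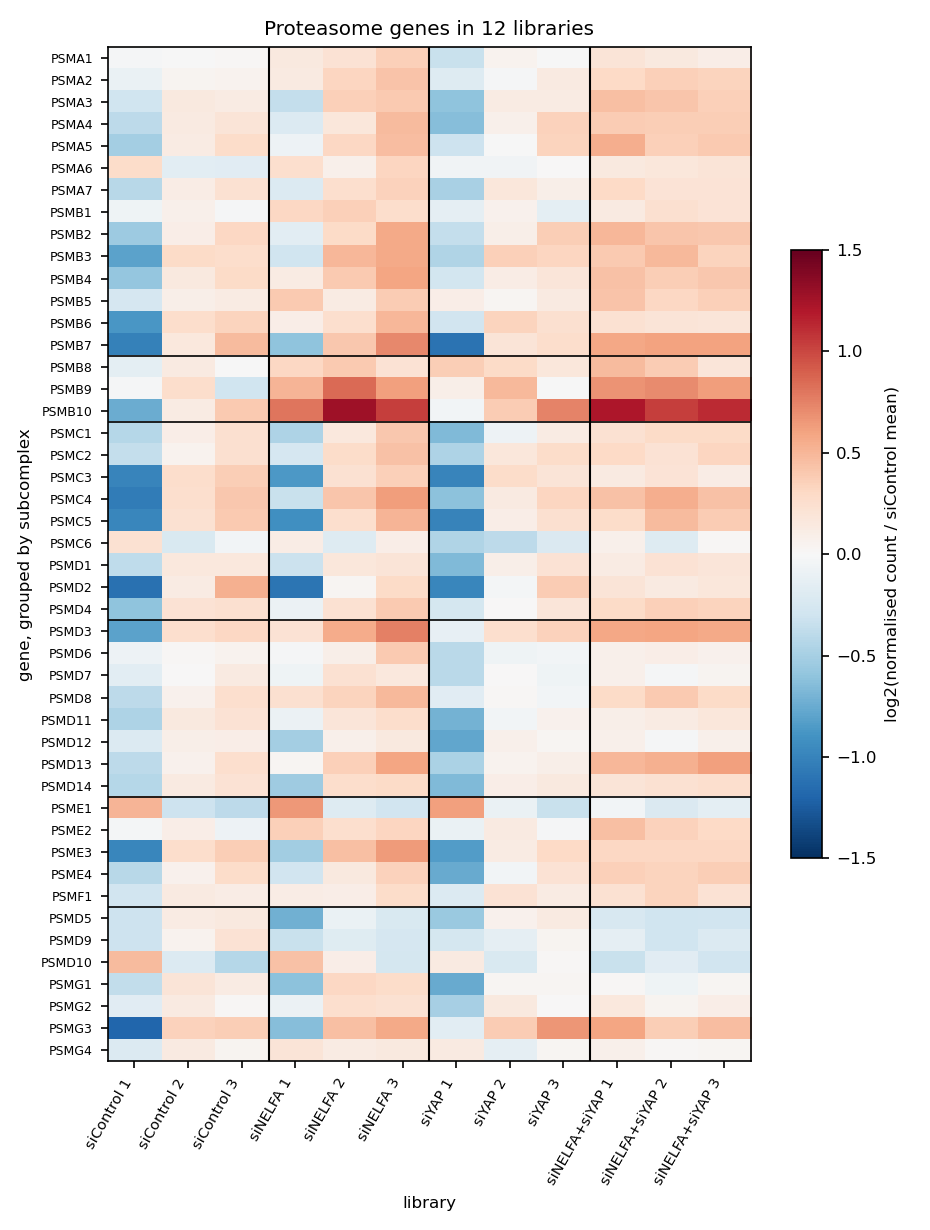
Normalised count of each of the 46 detected proteasome genes (rows, grouped by subcomplex between black lines, from core at the top to assembly chaperones at the bottom) in the 12 libraries (columns), as log2 of the ratio to the siControl mean. Replicate 1 lies below replicates 2 and 3 of its own group for 35 genes in siControl, siNELFA and siYAP and above them for PSME1 and PSMD10, and PSMB10 has the largest mean ratio in siNELFA and siNELFA+siYAP.

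The promoters of the genes called with the block are shown because proteasome genes are textbook targets of NFE2L1 and NFE2L2 through antioxidant response elements, and the inducible subunits of interferon regulatory factors through interferon response elements. The windows are the 250 bases before the RefSeq start (GRCh38.p14), written along the gene. Capitals mark a match, on either strand, to TGACNNNGC (the core of the antioxidant response element, in PSMB9 and PSMD3) or to the core of the interferon response element, which is GAAA and GAAA with NN between (in PSMB10 and PSMB4). The windows lie at chr6:32853942-32854191 (plus strand) for PSMB9, chr16:67936851-67937100 (minus strand) for PSMB10, chr17:39980557-39980806 (plus strand) for PSMD3 and chr1:151399323-151399572 (plus strand) for PSMB4.
PSMB9: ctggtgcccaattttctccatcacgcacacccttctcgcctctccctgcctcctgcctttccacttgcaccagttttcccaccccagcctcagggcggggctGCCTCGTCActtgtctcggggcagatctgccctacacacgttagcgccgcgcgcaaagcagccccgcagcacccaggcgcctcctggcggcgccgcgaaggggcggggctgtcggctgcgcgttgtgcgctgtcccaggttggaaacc
PSMB10: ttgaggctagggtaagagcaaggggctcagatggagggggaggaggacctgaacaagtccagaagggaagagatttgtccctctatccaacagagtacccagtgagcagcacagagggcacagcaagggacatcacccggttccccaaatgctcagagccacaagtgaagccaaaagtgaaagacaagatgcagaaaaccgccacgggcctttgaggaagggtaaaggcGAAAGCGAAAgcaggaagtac
PSMD3: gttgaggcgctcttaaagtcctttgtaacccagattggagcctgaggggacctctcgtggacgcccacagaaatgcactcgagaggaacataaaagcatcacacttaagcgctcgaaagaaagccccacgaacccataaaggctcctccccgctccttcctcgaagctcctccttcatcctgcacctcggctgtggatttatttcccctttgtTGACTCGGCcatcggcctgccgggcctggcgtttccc
PSMB4: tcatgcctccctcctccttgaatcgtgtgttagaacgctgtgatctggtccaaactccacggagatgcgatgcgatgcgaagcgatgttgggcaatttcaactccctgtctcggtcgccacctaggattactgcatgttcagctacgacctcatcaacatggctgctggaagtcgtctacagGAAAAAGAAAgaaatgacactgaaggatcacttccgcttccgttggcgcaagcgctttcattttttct

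Of the 48 members, 42 had a promoter in the RefSeq table. PSMA7, PSMB1, PSMB6, PSMB7, PSMD4 and PSMG3 had none. TGACNNNGC was found in 13 of the 42 genes (31.0%) and in 13.2% of all 27305 genes with a window. The interferon response element core was found in 5 (11.9%), namely PSMA4, PSMB4, PSMB10, PSME2 and PSMG4, and in 3.71% of all windows. CCGGAAG, the core bound by ETS factors, was in 11 (26.2%) and in 10.2% of all windows. GGAATG, the core bound by TEAD factors, was in 6 (14.3%) and in 14.3% of all windows. Letters of different motifs were allowed to overlap, each window counted once, and a match is a description of the sequence and not of binding.

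In siYAP against siControl, which asks what loss of YAP alone does, no member passed the test. There were 16 members above 0 and 30 below, with a median of −0.06 against 0.00 over 17296 genes. On log2(TPM + 1), 13 were above 0 and 33 below, with a median of −0.12 against −0.05 over all genes, and 18 lay above the latter. Within the numbered pairs, 8 of the 46 were higher in siYAP in all 3, as were 18.2% of all genes. A further 13 were lower in all 3, for which no share of all genes was counted. The median was −0.19 without replicate 1 of siControl and 0.11 without replicate 1 of siYAP. With the replicate block it was −0.05, and −0.03, −0.05 and −0.03 without the pairs of replicates 1, 2 and 3. By edgeR's quasi-likelihood test 0 of 46 members were called and 0 had an unadjusted p under 0.05, beside 0.00578% and 1.30% of all genes, and DESeq2 called 0 (0.00314% of all genes). The 1 gene called by edgeR's quasi-likelihood test was YAP1 itself (adjusted p = 0.0162), so the lack of calls does not show that members were unchanged. Of all genes, 49.8% were above 0. With the replicate block 0 members were called and 1 had an unadjusted p under 0.05, beside 0.0173% and 9.11% of all genes. The lid had 7 of 8 below 0 with a median of −0.12, the base 8 of 9 with a median of −0.07, and the core 8 of 14 with a median of −0.02.

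The lowest member was the base ATPase PSMC6, with normalised counts of 881, 919 and 1035 in siYAP against 1413, 1024 and 1172 in siControl, at −0.35 ± 0.19. The groups overlapped. The inducible catalytic subunits were all above 0. PSMB10 had 127, 169.8 and 218 in siYAP, at 0.39 ± 0.36 the highest of the family, with groups that overlapped. PSMB9 had 318, 418 and 298, at 0.20 ± 0.24. PSMB8 had 778, 737 and 678 and was the 1 member whose siYAP libraries all lay above those of siControl, at 0.27 ± 0.17, where 4.12% of all genes did so.

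In siNELFA+siYAP against siControl, 40 members had a fold change above 0 and 6 below, with a median of 0.26 against −0.03 over 17533 genes, of which 47.4% were above 0. On log2(TPM + 1), 34 were above 0 and 39 above the median of all genes, with a median of 0.14 against −0.11 over all genes. By edgeR's quasi-likelihood test 0 members had an adjusted p under 0.05, beside 0.428% of all genes, and the smallest adjusted p of a member was 0.112. At an unadjusted p under 0.05, 8 were higher and 0 lower, where 8.27% of all genes were higher. DESeq2 called PSMB10 (adjusted p = 0.00902) and PSMB9 (adjusted p = 0.0457), 2 of 46 beside 935 of 32094 genes (2.91%). That share is over genes without the low-count filter that all 46 passed, so it is not a like background. Both tests take the siNELFA+siYAP libraries as 3 replicates. With these summed as 1 sample, PSMB10 was at 1.11 ± 0.48. That fit was chosen after seeing the data and assumes that the sum varies like siControl. It has too few samples to decide which members changed. Over all genes the siNELFA+siYAP libraries did not share the deviations of the numbered libraries, and over the members the correlations were only 0.128 to 0.309. The shift of replicate 1 could therefore not be removed by a block here. Any technical difference between the siNELFA+siYAP libraries and the others cannot be told apart from the knockdown.

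PSMB10 and PSMB9 again had the largest fold changes. PSMB10 had normalised counts of 302, 269 and 284 in siNELFA+siYAP, above the 77.8 to 172 of siControl, at 1.10 ± 0.27 or 2.15-fold. PSMB9 had 477, 491 and 461, at 0.66 ± 0.17 or 1.58-fold, and PSMB8 had 839, 787 and 683, at 0.34 ± 0.14. All 3 had groups without overlap. The constitutive PSMB5 at 1406, 1297 and 1337 was above siControl in every library, at 0.35 ± 0.13, and so was PSMB7 at 3081, 3129 and 3152, at 0.58 ± 0.32. PSMB6 at 1014, 988 and 982 overlapped with siControl, at 0.19 ± 0.28.

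On the count scale 14 of 14 core genes were above 0, and 13 lay above the median of all genes on the TPM scale, with a median of 0.36 on counts and 11 without overlap. The lid had 8 of 8 above 0 on counts, and 7 above that median on TPM, and the base 8 of 9 on counts and 8 on TPM, with medians on counts of 0.17 and 0.26. Among the activators PSME2 was at 0.35 ± 0.12, PSME4 at 0.34 ± 0.17, PSME3 at 0.30 ± 0.31, PSMF1 at 0.25 ± 0.14 and PSME1 at −0.14 ± 0.25. The chaperones had 3 of 7 above 0 and a median of −0.02, with PSMD5 the lowest at −0.28 ± 0.14. In total 24 members had siNELFA+siYAP above siControl without overlap, and 0 below, where 15.9% of all genes were above. The median and the calls moved with replicate 1 of siControl. Without that library the median was 0.12, and 13 members were called higher and 2 lower, beside 24.4% of all genes in either direction and 11.5% higher, and the directions of PSMB6, PSME1 and PSME3 turned, to −0.10, 0.21 and −0.01.

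**Figure D5:**
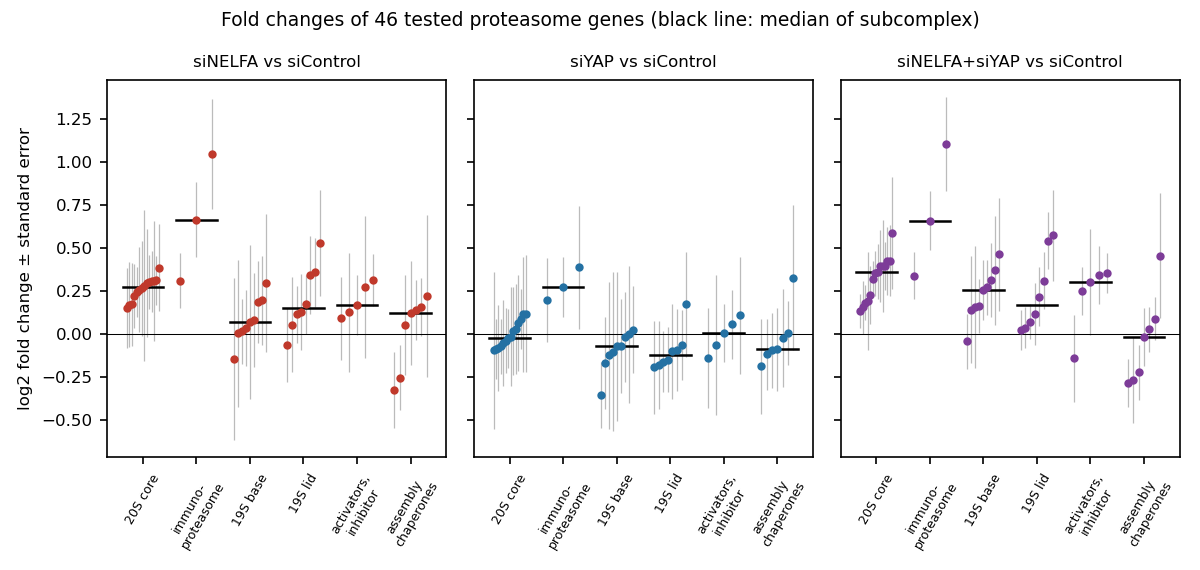
Log2 fold change of the 46 tested proteasome genes against siControl in siNELFA, siYAP and siNELFA+siYAP, by subcomplex (points are genes, grey lines standard errors, black lines subcomplex medians). The 3 comparisons share the siControl libraries. On this count scale the 14 core genes lie above 0 in siNELFA and siNELFA+siYAP (medians 0.27 and 0.36) and around 0 in siYAP (median −0.02). On the TPM scale 14 and 13 of them lay above the median of all genes in siNELFA and siNELFA+siYAP, and 10 and 13 above 0. In siYAP 6 lay above that median and 3 above 0 on the TPM scale.

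Adding the NELFA pool to the YAP pool, that is siNELFA+siYAP against siYAP, gave 42 members above 0 and 4 below, with a median of 0.28 against −0.03 over 17167 genes, of which 46.6% were above 0. By edgeR's quasi-likelihood test 0 were called, beside 0.0350% of all genes, with a smallest adjusted p of 0.176, and 13 were higher at an unadjusted p under 0.05, where 6.66% of all genes were higher. DESeq2 called PSMD13, a lid subunit (adjusted p = 0.0399), 1 of 46 beside 504 of 31900 genes (1.58%), again without the low-count filter. With the siNELFA+siYAP libraries summed as 1 sample, the log2 fold change of PSMD13 was 0.65. The DESeq2 call takes the siNELFA+siYAP libraries as replicates, which the fit of 1 summed sample cannot check. PSMD13 had normalised counts of 1107, 1602 and 1632 in siYAP and of 2180.3, 2224 and 2367 in siNELFA+siYAP, without overlap, at 0.64 ± 0.16. PSMB10 was the highest at 0.72 ± 0.22 and PSMB9 was at 0.46 ± 0.16, both without overlap, while PSMB8 was at 0.07 ± 0.13 and at −0.03 on the TPM scale. PSME1 was the lowest at −0.25 ± 0.24.

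In this comparison 9 of 9 base genes and 8 of 8 lid genes were above 0 on counts and on TPM, and 14 of 14 core genes on counts and 13 on TPM. The medians on counts were 0.31, 0.32 and 0.31, and 28 members had non-overlapping groups, where 13.8% of all genes did in that direction. The median and the calls moved with replicate 1 of siYAP. Without it, the median was 0.13 and 11 members were called higher and 1 lower, beside 16.5% of all genes in either direction and 7.96% higher.

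Adding the YAP pool to the NELFA pool, siNELFA+siYAP against siNELFA, gave no call. There were 33 members above 0 and 13 below, with a median of 0.06 against −0.01 over 17463 genes. Without replicate 1 of siNELFA the median was −0.05. On log2(TPM + 1) the median was 0.16 against 0.06 over all genes, with 34 members above the latter. By edgeR's quasi-likelihood test 0 of 46 were called and 0 had an unadjusted p under 0.05, beside 0.00573% and 6.62% of all genes, and DESeq2 called 0 (0.153% of all genes). Of all genes, 48.5% were above 0. PSMB1 and PSMG4 were the 2 members with siNELFA+siYAP below siNELFA in all libraries, where 7.40% of all genes were, and 0 were above, where 7.68% were. The inducible subunits lay from 0.00 to 0.07. PSMB7 was the highest at 0.31 ± 0.29, and PSMD10 was the lowest at −0.38 ± 0.20, with 254, 284 and 261 normalised counts in siNELFA+siYAP against 433, 341 and 267 in siNELFA. Whether the effect of the NELFA pool differed with and without the YAP pool was tested as an interaction in 1 fit of all 12 libraries. It was called for 0 of 46 members and 0 of 18525 genes, and at an unadjusted p under 0.05 for 0 members and 326 genes. This fit had no replicate block and took the siNELFA+siYAP libraries as separate replicates. Any technical difference of those libraries entered the interaction, so the lack of calls does not show that the effects were alike.

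Other genes of the pathway were given by a list of 33 proteins that are not PSM subunits, from ubiquitin genes, shuttles and the VCP extraction machinery to NFE2L factors and antigen processing. All 33 were tested. In siNELFA against siControl 0 were called by edgeR's quasi-likelihood test, and 2, NFE2L1 and TAP1, had an unadjusted p under 0.05. These stand beside 4.46% of all genes at that p. With the replicate block 4 of 33 were called and all were higher, beside 5.21% of all genes called and 2.76% higher. NFE2L1, the transcription factor that restores proteasome gene expression when proteasome capacity falls, rose by 0.46 ± 0.09 (adjusted p = 0.0104), from 5230.0, 5055 and 5714 normalised counts in siControl to 7554, 6958 and 7452 in siNELFA. TAPBP, the tapasin chaperone of MHC class I loading, rose by 0.55 ± 0.09 (adjusted p = 0.00621). The peptide transporter subunits TAP1 and TAP2 rose by 0.42 ± 0.11 each (adjusted p = 0.0399 and 0.0477).

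Subunits outside the symbol rule were not called. ADRM1, a ubiquitin receptor of the 19S cap, was at 0.13 ± 0.46 without the block and 0.21 ± 0.13 with it. SEM1, a small lid subunit listed under its older symbol SHFM1, was at 0.06 ± 0.16 without the block, and POMP, the core maturation factor, at −0.05 ± 0.20. In siYAP 0 of the 33 were called with or without the block, and 0 of 33 in the comparisons of siNELFA+siYAP. In siNELFA+siYAP against siControl NFE2L1 was at 0.49 ± 0.10 (adjusted p = 0.0802) and TAP1 at 0.35 ± 0.11 (adjusted p = 0.166).

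The genes PSMB8, PSMB9, TAP1 and TAP2 are neighbours in the MHC class II region of chromosome 6. In the GENCODE annotation of GRCh38, PSMB9 (chr6:32844136-32859851, plus strand) overlaps PSMB8 and TAP1 on the other strand and PSMB8-AS1 on its own. PSMB10 (chr16:67934506-67936864, minus strand) shares its strand with 1 overlapping gene, and PSMB4 (chr1:151399560-151401937) and PSMD3 (chr17:39980807-39997959) overlap none. Over the family, 29 of 48 genes were overlapped by another gene and 13 on the same strand. Libraries were made with dUTP marking of the second strand, but the strand setting of the authors' counting was not given in the sources used here, so counts in such overlaps are uncertain.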

How the data were processed

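RNA of 12 libraries (4 groups of 3) was sequenced after ribosomal RNA depletion with a dUTP kit. The authors aligned reads to GRCh38 with STAR and counted them per gene with featureCounts, and deposited raw counts. The submitters' processing notes also name cutadapt and Cufflinks. The authors also deposited TPM values per gene, used here for levels and as another scale. A table of FPKM was not used.

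The 46 members were fitted among all genes that passed filterByExpr (minimum count 10, minimum total 15, proportion 0.7) with edgeR 4.0.16 (TMM factors, quasi-likelihood F-test, 6 libraries per comparison, Benjamini-Hochberg adjustment over all genes, threshold 0.05) in R 4.3.3. Standard errors are the log2 fold change divided by the root of F. Normalised counts are counts scaled to the mean TMM-effective library size. Alternatives were DESeq2 1.42.0, limma 3.58.1 on log2(TPM + 1) or log2(TPM + 0.1), other filters and scalings, and left-out libraries. Shares of all genes given with DESeq2 are over the 31866 to 32094 genes with a DESeq2 p-value, without the filter on low counts. Scripts were tested on simulated data. Named were the catalytic subunits, activators and inhibitor, members called with or without the block, the highest and lowest level of each subcomplex, undetected members and the extremes of each comparison, and, of the related list, calls and 5 fixed genes (TAP1, NFE2L1, ADRM1, SEM1, POMP). PSMD13, PSMD9, PSMB3, PSMG4, PSMB1, PSMA1 and PSMA2 were named after their values were seen. A marker gene of the blood cell list is not reported here. The members and lists were chosen with earlier results of these data known.

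Same-numbered libraries of siControl, siNELFA and siYAP deviated together (correlations of 0.639 to 0.885), so the replicate number was taken to pair them, although the labels do not say what it stands for. The study describes its replicates as biological, but the library names put the 3 siNELFA+siYAP libraries under N1, so p-values that use them may measure technical spread. They were also summed as 1 sample, an alternative chosen after seeing the data. Depth was 9608145 to 18803104 counts per library. Gene positions are from GENCODE on GRCh38 and promoters from RefSeq.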

Additional observations from a re-analysis of the deposited data

How the results depend on the processing

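With 3 libraries a group, and replicate 1 apart in 3 groups, the counts of calls were the least stable values. With the replicate block 4 members were called in siNELFA against siControl in place of 0. Without the pair of replicate 1, 2 or 3, a choice made after seeing the data, the blocked fit called 18, 2 and 2. The medians of the members in these fits were 0.17, 0.24 and 0.18. The block changed no other count of calls. DESeq2 called 2 in siNELFA+siYAP against siControl and 1 against siYAP. Leaving out replicate 1 of siControl, siNELFA and siYAP gave 15 and 12, and leaving out 1 library at a time 0 to 15 and 0 to 12. The members' share of protein-coding counts in siNELFA+siYAP was 0.613%, and the order of levels by TPM and by counts per kilobase had a rho of 0.759 over 46 genes. Medians ranged with 1 library left out from 0.04 to 0.30 in siNELFA, −0.19 to 0.11 in siYAP and 0.12 to 0.38 in siNELFA+siYAP against siControl. With the siNELFA+siYAP libraries summed as 1 sample, the median of the members was 0.27 against siControl, 0.27 against siYAP and 0.05 against siNELFA. The cause of these shifts was not tested.

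A few named members had another sign. In siNELFA against siControl, on the TPM scale, whose median over all genes was −0.17, limma with pseudocounts of 1 and 0.1 gave −0.122 and −0.123 for PSME1, −0.0296 and −0.0309 for PSME4, and −0.0197 and −0.0200 for PSMF1. With 1 library left out, PSMB7 ranged from −0.0397 to 0.59, PSME1 from −0.23 to 0.48, PSME3 from −0.0398 to 0.55 and PSME4 from −0.0749 to 0.25. In siNELFA+siYAP against siControl, leaving out siControl replicate 1 gave −0.0982 for PSMB6, 0.21 for PSME1 and −0.0115 for PSME3, with upper or lower ends of 0.39, −0.30 and 0.53 over the libraries left out. Against siYAP, limma gave −0.0271 and −0.0276 for PSMB8, and PSME1 was 0.0849 without siYAP replicate 1, in a range from −0.43.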
